A study of Mus musculus with 11 samples.

Results

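The mitochondrial ribosomal proteins are the protein subunits of the ribosome inside mitochondria, and their genes were taken as all gene symbols made of Mrpl or Mrps and a number, with or without a letter from a to c. By this rule 75 of the 30790 genes measured were members, and where a symbol had several probe sets the one with the highest mean over the 11 arrays stood for it. RNA was measured on Affymetrix arrays in vascular fragments, meaning brain blood vessels isolated in pieces, after middle cerebral artery occlusion (MCAO), a mouse model of stroke. All samples came from the hemisphere on the occluded side of adult male C57BL/6 mice, with no allele or transgene named. The arrays fell into groups of 3 samples given imatinib and 3 given PBS, taken 24 h after MCAO, and of 2 given imatinib and 3 given PBS, taken 3 h after it. Imatinib is an inhibitor of tyrosine kinases such as the platelet-derived growth factor receptors, and PBS is the buffer given to the control mice. Mice of the 3 h groups were treated 3 times before MCAO, and mice of the 24 h groups received a 4th treatment, so that time after MCAO and number of treatments cannot be told apart in comparisons of 24 h with 3 h. Every mouse had MCAO, and vessels without it were not analysed here. The labels do not say whether each sample came from a separate mouse. The p-values weigh differences against the spread between samples within groups, and that spread may be technical.

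Mitochondria keep a small genome that encodes a few subunits of the respiratory chain and the ribosomal RNAs needed to translate them, while all proteins of the mitochondrial ribosome are encoded in the nucleus, made in the cytosol and imported. The small subunit (Mrps symbols) binds the messenger RNA, and the large subunit (Mrpl symbols) joins the amino acids. Some of the proteins descend from those of bacterial ribosomes, and others were added in mitochondria and have no bacterial counterpart. Symbols follow an older nomenclature: the products of Mrps30 and Mrps18a sit in the large subunit, and that of Mrps36 is a component of the alpha-ketoglutarate dehydrogenase complex. Counted in this way, the members comprised 49 genes of the large subunit, 25 of the small subunit and Mrps36. Nuclear genes for mitochondrial proteins are known targets of the transcription factors NRF1, GABP (an ETS family factor) and YY1, and Myc is known to bind many of them.

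Promoters are shown because these genes moved together, as described below, and because binding sequences of these factors are known. The reference (RefSeq, build GRCm38.p6) held promoters of 66 of the 75 members, as 250 bases before and 50 bases after an annotated start. The sequences searched on both strands were GCGCATGC for NRF1, CCGGAAG for ETS factors, ATGGCGGC for YY1 and CACGTG for the Myc E-box. The NRF1 letters can overlap with their own reverse complement, and no pair of different sequences shares letters in the promoters printed here. The ETS letters occurred in promoters of 25 of 66 members (37.9%), against 12.9% of 17491 protein-coding genes. The YY1 letters occurred in 12 (18.2%), against 3.5%. The NRF1 letters occurred in 8 (12.1%), against 3.93%. The E-box occurred in 5 (7.58%), against 8.91%. At least 1 of the NRF1, ETS and YY1 sequences was present in 35 members (53%), against 18.5% of protein-coding genes, and Mrpl22 alone held all of them. Below are the 120 bases directly before the start for 6 members, with ETS and NRF1 letters in capitals (CTTCCGG is the ETS sequence read on the other strand). Mrpl52 and Mrps27 were among the members with the highest 24 h to 3 h differences, Mrpl22 and Mrpl17 hold the NRF1 letters and rose in PBS, and Mrpl9 and Mrpl27 had the lowest differences in PBS. The windows are chr14:54426789-54426908 (Mrpl52, + strand), chr13:99344666-99344785 (Mrps27, + strand), chr11:58171544-58171663 (Mrpl22, + strand), chr7:105811088-105811207 (Mrpl17, - strand), chr3:94443216-94443335 (Mrpl9, + strand) and chr11:94653671-94653790 (Mrpl27, + strand). The last line is the stretch of 41 bases at chr7:78783090-78783130 (+ strand) between the starts of Mrpl46 and Mrps11, which are transcribed away from each other. It holds none of the sequences searched.
Mrpl52: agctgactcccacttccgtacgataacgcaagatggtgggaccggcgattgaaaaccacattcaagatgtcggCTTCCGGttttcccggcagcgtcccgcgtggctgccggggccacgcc
Mrps27: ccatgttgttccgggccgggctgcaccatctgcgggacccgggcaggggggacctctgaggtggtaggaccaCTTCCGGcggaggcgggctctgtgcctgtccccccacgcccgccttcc
Mrpl22: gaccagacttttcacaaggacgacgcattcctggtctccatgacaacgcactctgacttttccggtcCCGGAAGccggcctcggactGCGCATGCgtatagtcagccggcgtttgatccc
Mrpl17: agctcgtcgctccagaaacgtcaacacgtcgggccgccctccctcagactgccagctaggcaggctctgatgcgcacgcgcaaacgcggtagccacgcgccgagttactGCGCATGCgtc
Mrpl9: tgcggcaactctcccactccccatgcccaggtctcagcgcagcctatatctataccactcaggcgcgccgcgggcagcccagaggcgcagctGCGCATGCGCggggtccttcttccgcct
Mrpl27: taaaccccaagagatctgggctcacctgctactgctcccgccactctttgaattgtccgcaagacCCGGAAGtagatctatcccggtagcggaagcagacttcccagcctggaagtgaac
Mrpl46 and Mrps11: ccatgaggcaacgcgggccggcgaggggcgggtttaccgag

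The values are log2 signals, so a difference of 1 is a 2-fold change, and signals of different genes come from different probes and are not compared as amounts. Array medians lay between 5.17 and 5.25, and the members' means over the arrays between 4.85 (Mrps36) and 10.21 (Mrpl52). The mean signal of the 10 endothelial markers was between 10.63 and 11.23 on all arrays. That of the 6 microglial markers was between 10.07 and 10.74, and that of the 7 neuronal markers between 5.00 and 5.41. The endothelial and microglial means lay above the array medians on every array. The 3 h PBS sample numbered 1 stood apart on the second principal component of all genes, which held 7.99% of the variance, while the first (50.2%) separated 24 h from 3 h.

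At 24 h the mitochondrial ribosomal protein genes were broadly higher than at 3 h. In PBS vessels 57 of the 75 members rose and none fell at an adjusted p below 0.05 (limma, Benjamini-Hochberg over all genes), while 9.34% of all genes rose and 7.28% fell. The members' median log2 difference was 0.52, against -0.02 for all genes, and 73 members (97.3%) had a difference above 0, against 46.1% of all genes. All 24 h values lay above all 3 h values in 64 members (85.3%), against 15.2% of all genes. The rises were of moderate size: 31 members rose at least 1.5-fold (5.26% of all genes did) and 5 at least 2-fold (1.81% of all genes). On every 24 h array the mean signal of the members was higher than on any 3 h array, with 7.70 to 7.72 in imatinib 24 h, 7.71 to 7.81 in PBS 24 h, 7.22 to 7.23 in imatinib 3 h and 7.16 to 7.23 in PBS 3 h.

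**Figure D1:**
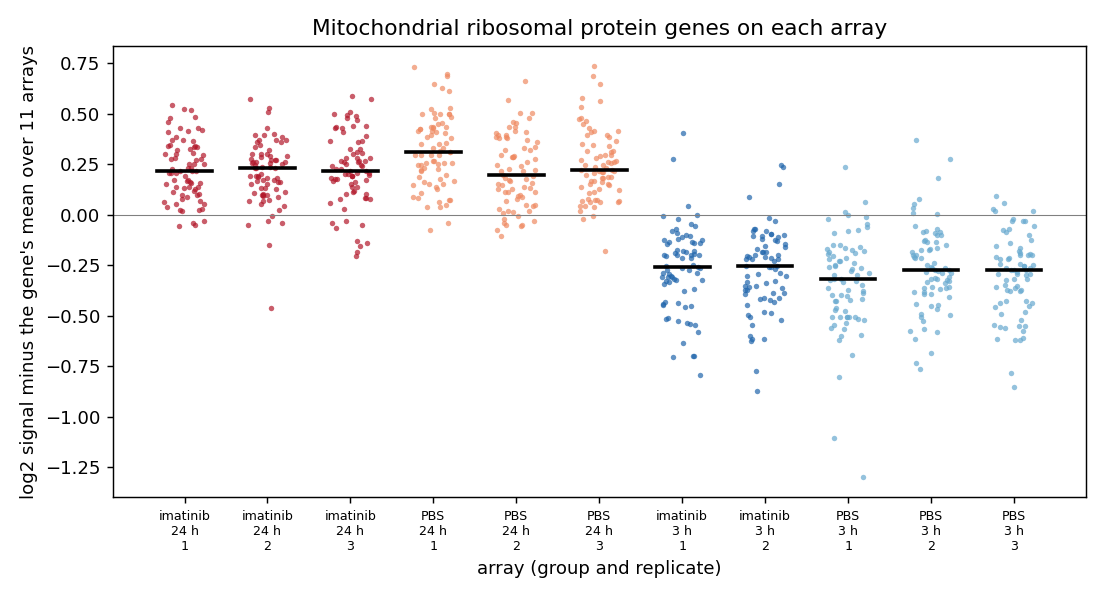
Log2 signal of each of the 75 members minus its own mean over the 11 arrays (y axis) on each array (x axis), with 1 point per gene and a black line at the median. The medians of the 6 arrays at 24 h all lie above 0 and those of the 5 arrays at 3 h below it, in imatinib and in PBS alike.

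In the large subunit, Mrpl52, which has no bacterial counterpart, had the highest difference of all members. Its log2 signals were 10.91, 10.87 and 10.90 in PBS at 24 h, against 9.69, 9.45 and 9.43 in PBS at 3 h, a rise of 1.37 ± 0.10 (SE; 2.58-fold, adjusted p = 8.5e-06). The 24 h values lay close together and far above the 3 h values. Mrpl15 encodes a core protein with a bacterial homologue. Its signals were 8.63, 8.52 and 8.55 at 24 h, against 6.72, 7.34 and 7.74 at 3 h in PBS, a rise of 1.30 ± 0.20 (adjusted p = 0.000975). The groups did not overlap, but the 3 h values were spread more widely than those at 24 h. Mrpl12 forms the flexible stalk of the large subunit that contacts translation factors. It had 7.56, 7.39 and 7.61 at 24 h, against 6.50, 6.47 and 6.61 at 3 h in PBS, a difference of 0.997 ± 0.10 (adjusted p = 8.3e-05). Mrpl36 had 7.85, 7.83 and 7.76 at 24 h, against 6.79, 6.91 and 6.81 at 3 h in PBS, a difference of 0.98 ± 0.09 (adjusted p = 2.9e-05). Both genes rose by close to 2-fold and their groups lay well apart. Mrpl47 is the homologue of bacterial L29. It had 8.08, 8.15 and 7.95 at 24 h, against 6.78, 7.48 and 7.02 at 3 h in PBS (0.97 ± 0.19, adjusted p = 0.00444), and the second probe set of this gene also rose, by 0.78 ± 0.12 (adjusted p = 0.000777).

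In the small subunit, Mrps28, Mrps27 and Mrps25 rose at least 2-fold in PBS. Mrps28 had 7.99, 7.80 and 7.95 at 24 h, against 6.82, 6.72 and 6.44 at 3 h, a rise of 1.25 ± 0.11 (adjusted p = 2.9e-05). Mrps27, a pentatricopeptide repeat protein without bacterial counterpart, had 6.85, 6.59 and 6.94 at 24 h, against 5.78, 5.59 and 5.58 at 3 h (1.14 ± 0.14, adjusted p = 0.000187). The groups did not overlap in either gene, and the gap between them exceeded the range within each group. Mrps25 had 8.75, 8.71 and 8.63 at 24 h, against 7.14, 7.86 and 7.93 at 3 h (1.05 ± 0.18, adjusted p = 0.00204). Here the 3 h PBS sample numbered 1, which stood apart over all genes, gave the lowest value, as it did for Mrpl15. Without it the differences were 0.80 for Mrps25 and 1.03 for Mrpl15 (adjusted p = 0.00175 and 0.000812).

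**Figure D2:**
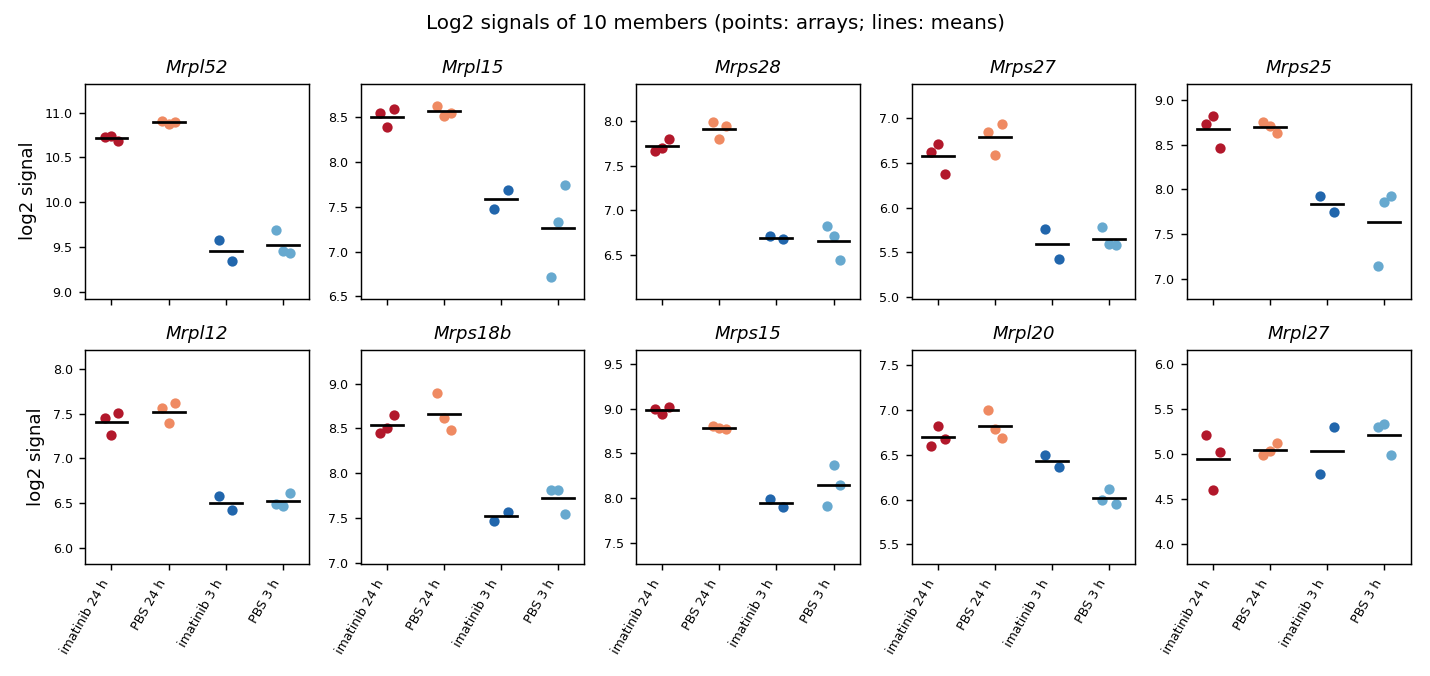
Log2 signals (y axis) of 10 members by group (x axis), with 1 point per array and lines at the group means, all panels spanning the same number of log2 units. In the first 8 panels all 24 h values lie above all 3 h values, the Mrpl20 values of imatinib lie above those of PBS at 3 h, and the groups of Mrpl27 overlap.

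Genes of the Mrps18 family encode related proteins that occupy different places in the ribosome, and their values differed. Mrps18b had 8.90, 8.62 and 8.48 in PBS at 24 h, against 7.82, 7.81 and 7.55 at 3 h, a rise of 0.94 ± 0.13 (adjusted p = 0.000382), and its second probe set rose by 1.03 ± 0.15. Mrps18a, of the large subunit, had 8.24, 8.43 and 8.24 at 24 h, against 7.87, 8.17 and 7.97 at 3 h (0.30 ± 0.11, adjusted p = 0.0862). Mrps18c had 5.24, 4.94 and 4.95 at 24 h, against 4.99, 4.84 and 5.02 at 3 h (0.09 ± 0.12, adjusted p = 0.689). Only Mrps18b passed the test, and the mean of Mrps18c over all arrays lay below the lowest array median. Differences between the members of the family were not tested. Mrps30, the other member of the large subunit with an Mrps symbol, had a difference of 0.28 ± 0.14 (adjusted p = 0.22). Mrps36, whose product is no ribosomal protein, had 4.89, 4.86 and 4.91 at 24 h, against 4.78, 4.71 and 4.70 at 3 h in PBS (0.16 ± 0.16, adjusted p = 0.604).

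Just inside the threshold in PBS was Mrps2 (0.39 ± 0.12, adjusted p = 0.045), a core protein of the small subunit whose call was lost under 13 of the alternatives run, and just outside it was Mrpl40 (0.46 ± 0.15, adjusted p = 0.0578). Mrpl40 passed without the 3 h PBS sample numbered 3 (adjusted p = 0.022), and Mrps18a without the one numbered 2 (adjusted p = 0.0427). Below 0 were Mrpl27 and Mrpl9, both homologues of bacterial proteins. Mrpl27 had 4.99, 5.03 and 5.12 in PBS at 24 h, against 5.30, 5.34 and 4.99 at 3 h (-0.16 ± 0.18, adjusted p = 0.638). Mrpl9 had 7.47, 7.37 and 7.24 at 24 h, against 7.36, 7.79 and 7.33 at 3 h (-0.13 ± 0.15, adjusted p = 0.636). In both genes the groups overlapped, and Mrpl9 had a difference of 0.01 without the 3 h PBS sample numbered 2.

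Calls went with signal. Of the 25 members with the lowest mean signals, 15 rose in PBS, of the 25 in the middle 19 and of the 25 with the highest 23, and the median differences were 0.46, 0.48 and 0.71. The 4 members with a mean under 5.5 (Mrps36, Mrps18c, Mrpl27 and Mrps14) had no call, and the means of 3 of them lay below the lowest array median. By subunit, 37 of 49 large and 20 of 25 small subunit members rose in PBS, with median differences of 0.54 and 0.49. By descent, 36 of 44 members with a bacterial homologue and 21 of 30 specific to mitochondria rose, with medians of 0.56 and 0.48. The rises thus spanned both subunits and both kinds of protein, and differences between these classes were not tested. The members lay on 17 chromosomes, with 10 genes on chromosome 11 and 8 on chromosome 17.

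Under imatinib, 42 of 75 members were higher at 24 h than at 3 h and none was lower, against 7.76% of all genes higher and 5.32% lower. The members' median difference was 0.45, against -0.04 for all genes, and 73 lay above 0 (43.9% of all genes). The 24 h and 3 h values did not overlap in 66 members, all of them higher at 24 h (19.4% of all genes). At least 1.5-fold rises were found in 23 members (5.01% of all genes) and at least 2-fold rises in 4 (1.63% of all genes). Without either 1 of the 2 imatinib samples at 3 h the count of members called was 22, with 1 sample left in that group and its spread taken from the other groups.

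Mrpl52 again had the highest difference, with 10.73, 10.74 and 10.68 in imatinib at 24 h, against 9.58 and 9.34 in imatinib at 3 h (1.26 ± 0.11, adjusted p = 6.5e-05). Mrps15, a core protein of the small subunit, came next, with 8.99, 8.94 and 9.02 at 24 h, against 7.99 and 7.90 at 3 h (1.04 ± 0.12, adjusted p = 0.00033). In both genes the values within a group lay close together and the groups far apart. Mrps28 had 7.67, 7.69 and 7.79 at 24 h, against 6.72 and 6.67 at 3 h (1.02 ± 0.12, adjusted p = 0.000341). Mrps18b had 8.45, 8.51 and 8.66 at 24 h, against 7.47 and 7.57 at 3 h (1.02 ± 0.14, adjusted p = 0.000742). These 4 genes were the members that rose at least 2-fold under imatinib. Among the next, Mrps27 rose by 0.97 ± 0.15, Mrpl15 by 0.92 ± 0.22, Mrpl12 by 0.91 ± 0.12 and Mrpl28 by 0.89 ± 0.16. The call of Mrpl15 was lost without either imatinib sample at 3 h (adjusted p = 0.129 without sample 1 and 0.0608 without sample 2), and without the imatinib samples numbered 1 or 3 at 24 h (adjusted p = 0.0523 and 0.0581). The call of Mrpl28 was lost without the imatinib sample numbered 1 at 3 h (0.72, adjusted p = 0.0539). Mrpl27 (-0.09 ± 0.20) and Mrpl40 (-0.05 ± 0.17) were the members below 0. Mrpl27 had 0.17 without the 3 h imatinib sample numbered 2 and 0.08 without the 24 h imatinib sample numbered 2, and Mrpl40 had 0.21 without the 3 h imatinib sample numbered 1. Mrpl40 had 6.39, 6.38 and 6.38 at 24 h, against 6.71 and 6.17 at 3 h, so that its 24 h values lay between those at 3 h.

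The differences between 24 h and 3 h in imatinib and in PBS share no array. Their tests, however, share the spread of each gene, which was estimated from the arrays of all groups together. The calls in imatinib and in PBS are therefore not independent of each other. Of the members, 39 were called higher in both (6.32% of all genes were), which is 92.9% of the calls in imatinib and 68.4% of those in PBS. Mrpl37, Mrpl4 and Mrps34 were called in imatinib alone (each of these 3 calls was lost without at least 1 array), 18 members in PBS alone and 15 in neither, but a call in 1 comparison only is no test of a difference between them. Across the 75 members the differences in imatinib and in PBS correlated with a Pearson r of 0.801 and a Spearman rho of 0.748, and across all genes with 0.79 and 0.586. These values are a description, since all genes were measured on the same arrays and are not independent.

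**Figure D3:**
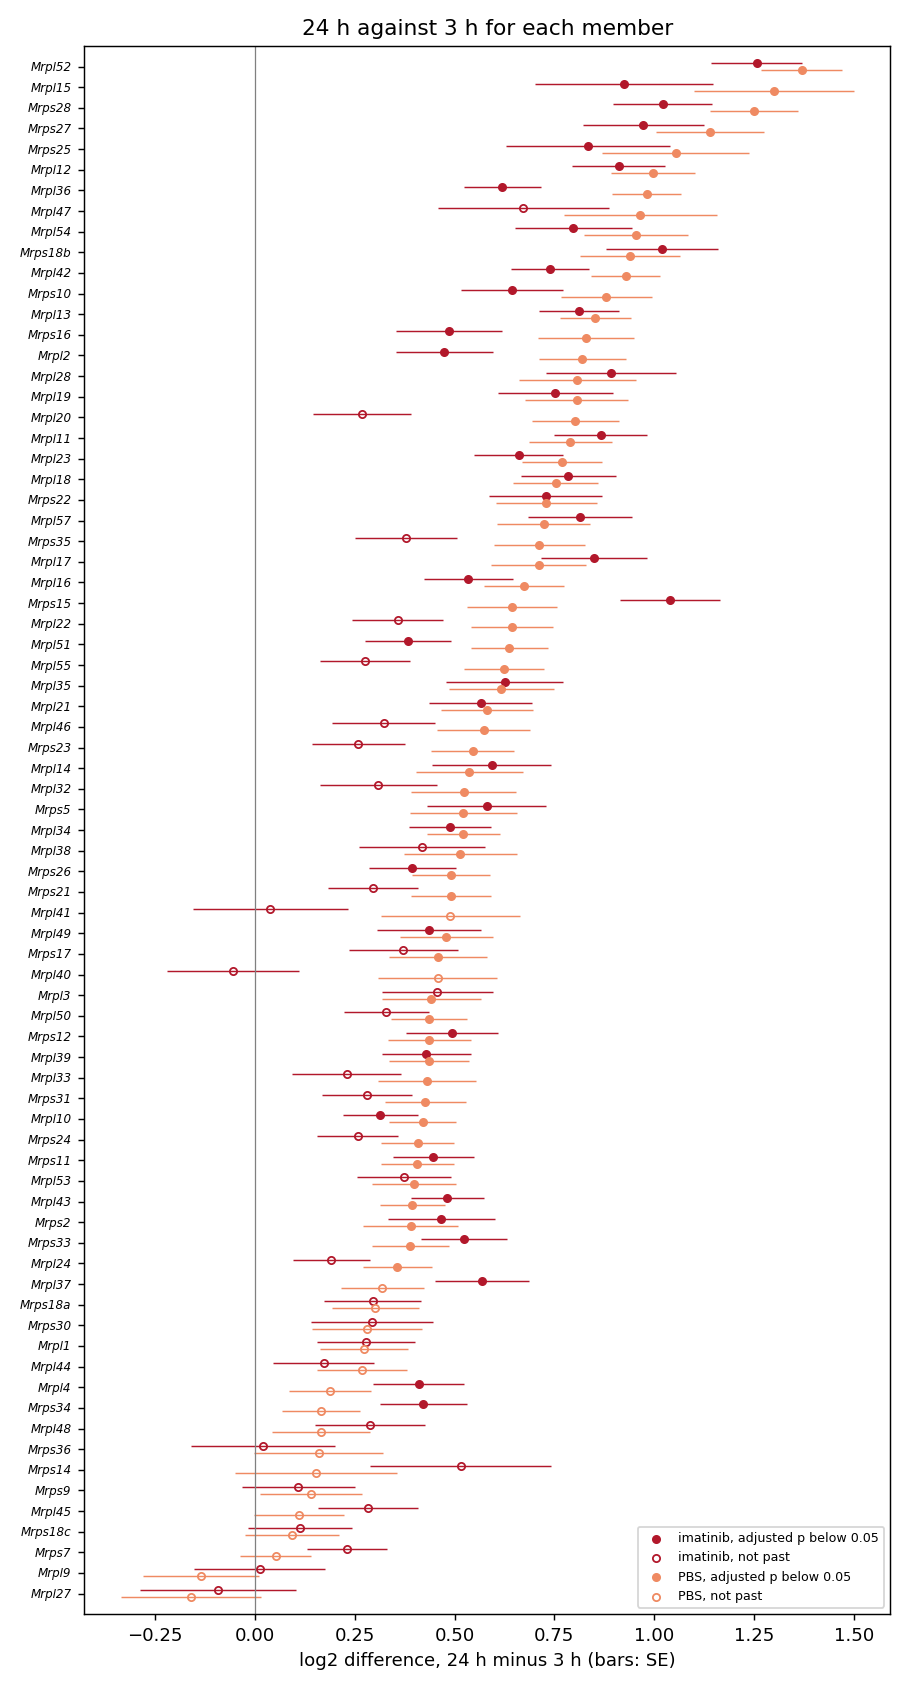
Log2 difference between 24 h and 3 h (x axis) with its standard error for each of the 75 members (y axis, ordered by the difference in PBS), in imatinib (dark red) and PBS (orange), with filled points at an adjusted p below 0.05. Nearly all points lie right of 0, from -0.16 for Mrpl27 to 1.37 for Mrpl52 in PBS.

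Imatinib was not followed by a detected change of any member relative to PBS. At 3 h, 0 of 75 members passed, as did 0% of all genes. At an unadjusted p below 0.05 in limma, 2 members differed, against 6.4% of all genes, and the members' median difference was 0.02. Mrpl20, a large subunit protein with a bacterial homologue, had 6.49 and 6.37 in imatinib at 3 h, against 5.99, 6.12 and 5.95 in PBS at 3 h (0.41 ± 0.12, unadjusted p = 0.00615, adjusted p = 0.7). Mrpl51 had 7.05 and 7.16 in imatinib, against 6.74, 6.94 and 6.90 in PBS (0.25 ± 0.11, unadjusted p = 0.0418, adjusted p = 0.772). The groups did not overlap in either gene, but both were named for their small p, so this is no further evidence. Mrps34 had the lowest difference at 3 h, with 7.0085 and 7.0002 in imatinib, against 7.28, 7.17 and 7.27 in PBS (-0.24 ± 0.11, adjusted p = 0.781).

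At 24 h, 0 of 75 members and 0% of all genes passed between imatinib and PBS. The members' median difference was -0.04, and 29 of 75 (38.7%) had a difference above 0, against 47.1% of all genes. Mrpl32, a large subunit protein cut to its mature form by a mitochondrial protease, was the member with an unadjusted p below 0.05 in limma, which 6.1% of all genes had. It had 6.79, 6.70 and 6.81 in imatinib at 24 h, against 7.12, 7.12 and 6.94 in PBS at 24 h (-0.29 ± 0.13, unadjusted p = 0.047, adjusted p = 0.817). Mrpl40 had the lowest difference, with 6.39, 6.38 and 6.38 in imatinib, against 6.73, 6.56 and 6.75 in PBS (-0.30 ± 0.15, adjusted p = 0.83). Mrps14 had the highest, with 5.42, 5.65 and 5.53 in imatinib, against 5.43, 5.31 and 5.27 in PBS (0.20 ± 0.20, adjusted p = 0.926), and its groups overlapped. In 10 members (13.3%) all imatinib values lay below all PBS values at 24 h, against 6.67% of all genes. In 4 members (5.33%) they lay above, against 6.33%. Among the 10 was Mrpl52, with 10.73, 10.74 and 10.68 in imatinib, against 10.91, 10.87 and 10.90 in PBS (-0.18 ± 0.10, adjusted p = 0.864).

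The interaction, which is the imatinib to PBS difference at 24 h minus that at 3 h, passed in 0 of 75 members and in 0% of all genes. Its median over members was -0.05 (-0.10 without the 24 h PBS sample numbered 2), and 28 members had a value above 0, against 48.3% of all genes. At an unadjusted p below 0.05 in limma, 5 members differed, against 5.49% of all genes: Mrpl20 (-0.53 ± 0.16), Mrpl40 (-0.51 ± 0.22), Mrpl36 (-0.36 ± 0.13), Mrpl55 (-0.35 ± 0.15) and Mrps15 (0.40 ± 0.17). Their adjusted p lay between 0.867 and 0.902. For Mrps15 the value came from a rise of 1.04 in imatinib beside a rise of 0.64 in PBS, and for Mrpl20 from a difference of 0.27 (adjusted p = 0.199) in imatinib beside a rise of 0.80 in PBS.

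**Figure D4:**
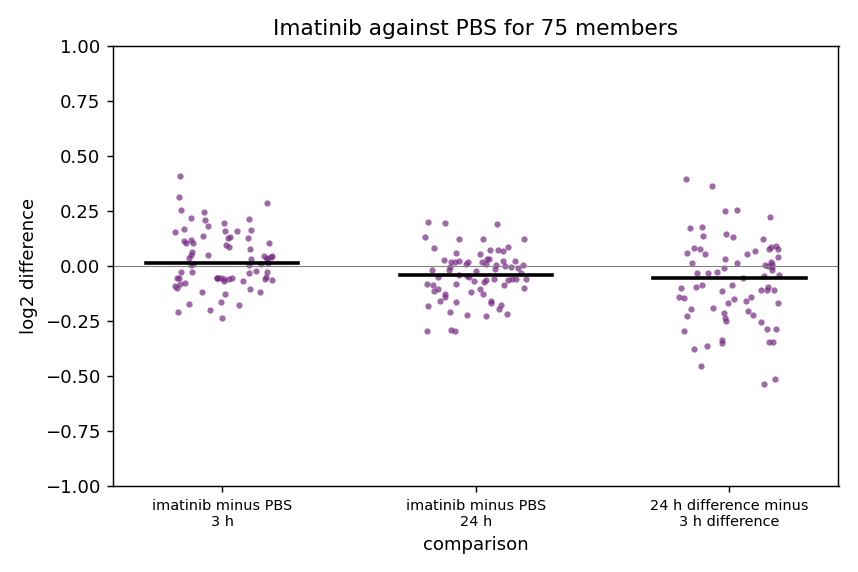
Log2 differences of the 75 members (y axis) between imatinib and PBS at 3 h and at 24 h, and the 24 h difference minus the 3 h difference (x axis), with 1 point per gene and lines at the medians of 0.02, -0.04 and -0.05. The points scatter around 0 and none had an adjusted p below 0.05.

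Other genes of mitochondrial translation were set beside the members. Of 6 mitochondrial ribosomal proteins with other symbols, 5 were higher at 24 h than at 3 h in imatinib and 5 in PBS. Dap3, a GTP-binding protein of the small subunit, rose by 0.51 ± 0.12 in imatinib (adjusted p = 0.0179) and by 0.39 ± 0.11 in PBS (adjusted p = 0.0282). Chchd1 rose by 0.68 in PBS, and Ptcd3 and Ict1, the peptide release factor built into the large subunit, by 0.59 and 0.58. Among translation factors 5 of 15 rose in imatinib and 5 in PBS, with medians of 0.40 and 0.30. They included the elongation factor Tufm (1.15 ± 0.18 in imatinib and 1.05 ± 0.16 in PBS) and Lrpprc, which stabilises mitochondrial messenger RNAs (1.05 ± 0.11 and 1.11 ± 0.09). Of 23 genes for ribosome assembly and rRNA modification 6 rose in imatinib and 5 in PBS, with medians of 0.24 and 0.22. Noa1, a GTPase of mitochondrial ribosome assembly, rose by 1.16 ± 0.12 in imatinib and by 1.59 ± 0.11 in PBS, and in PBS no member had a larger difference. Fastkd2 rose by 1.14 and Mtg1 by 1.11 in PBS.

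Mitochondrial DNA and RNA metabolism had 5 of 15 genes higher at 24 h in imatinib and 8 in PBS, with medians of 0.25 and 0.37, among them Pnpt1, an RNA-degrading enzyme (0.79 and 0.87). Of the mitochondrial chaperones and proteases 8 of 16 rose in imatinib and 8 in PBS, with medians of 0.35 and 0.51, led by the chaperone Trap1 (1.005 and 1.02) and the chaperonin Hspd1 (0.87 and 0.97). Respiratory chain and ATP synthase subunits, which include the partners of the proteins made by the mitochondrial ribosome, had 31 of 84 higher and 0 lower in imatinib and 36 higher and 1 lower in PBS, with medians of 0.27 and 0.28. Of the proteins of the cytosolic ribosome, 21 of 77 rose in imatinib, and 29 rose and 1 fell in PBS, with medians of 0.19 and 0.24. As shares, 56% of the members rose in imatinib and 76% in PBS, beside 36.9% and 42.9% of the respiratory chain and ATP synthase subunits and 27.3% and 37.7% of the cytosolic ribosomal proteins. The differences between lists were not tested.

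The ribosomal RNAs of the mitochondrion, with which the proteins assemble, are encoded by mitochondrial DNA as mt-Rnr1 and mt-Rnr2. Of 15 mitochondrially encoded genes searched by symbol these 2 were found, so the messenger RNAs of the mitochondrion are not described. The signals of mt-Rnr1 were 12.85, 12.99 and 12.87 in PBS at 24 h, against 13.008, 13.042 and 13.001 in PBS at 3 h (-0.12 ± 0.09, adjusted p = 0.448). Those of mt-Rnr2 were 12.37, 12.66 and 12.45 at 24 h, against 12.63, 12.67 and 12.59 at 3 h (-0.14 ± 0.10, adjusted p = 0.447). In PBS the 24 h values of mt-Rnr1 all lay below those at 3 h, while the mt-Rnr2 groups overlapped. Neither RNA changed past the threshold, in imatinib too, where the differences were -0.08 ± 0.10 and -0.07 ± 0.11.

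**Figure D5:**
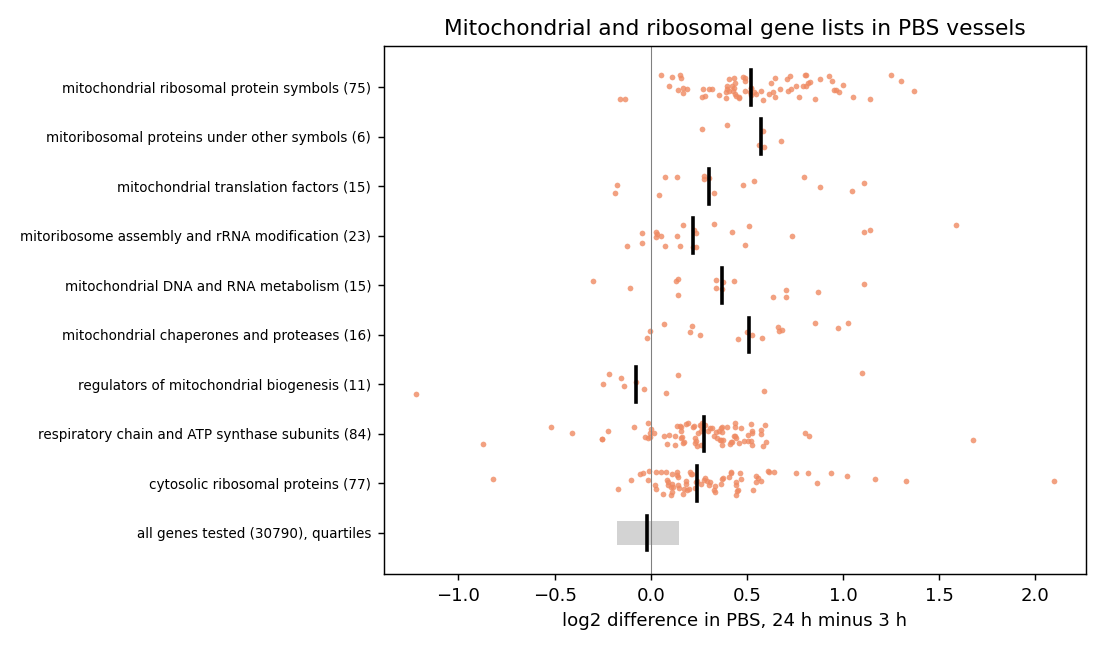
Log2 difference between 24 h and 3 h in PBS (x axis) for the genes of each list (y axis, number of genes in brackets), with 1 point per gene and lines at the medians, and a grey bar from the lower to the upper quartile of all genes tested. The median is 0.52 for the members, 0.28 for respiratory chain and ATP synthase subunits, 0.24 for cytosolic ribosomal proteins and -0.02 for all genes.

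Regulators known for nuclear genes of mitochondrial proteins, and Tfam, were measured as transcripts. Binding of the factors to promoters of the members was not measured. Nrf1 had differences between 24 h and 3 h of -0.18 ± 0.11 in imatinib and -0.15 ± 0.10 in PBS, and Gabpa of -0.09 ± 0.11 and -0.08 ± 0.10, none past the threshold. Yy1 fell by 0.41 ± 0.10 in imatinib (adjusted p = 0.0201) and had a difference of -0.22 ± 0.09 in PBS (adjusted p = 0.152). Myc rose by 0.80 ± 0.15 in imatinib (adjusted p = 0.00426) and by 1.10 ± 0.13 in PBS (adjusted p = 0.000205). Pprc1, a coactivator of the PGC-1 family, rose by 0.51 and 0.59. Ppargc1a, the best known coactivator of that family, had a difference of -0.25 ± 0.20 in imatinib (adjusted p = 0.497) and fell by 1.22 ± 0.18 in PBS (adjusted p = 0.000654). Its interaction was 0.97 ± 0.27 and did not pass the threshold in limma (adjusted p = 0.867). Tfam, which packages mitochondrial DNA, had differences of -0.01 and 0.14. Of the 11 regulators 2 rose and 1 fell in each of imatinib and PBS.

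Promoter letters and rises in PBS were set side by side. Of the 25 members with ETS letters 21 rose, and of the 41 without 29, with median differences of 0.52 and 0.48. With NRF1 letters 7 of 8 rose, and without them 43 of 58, with medians of 0.48 and 0.49. Of the 12 with YY1 letters 7 rose, and of the 54 without 43, with medians of 0.40 and 0.52. Among the 5 with the E-box 3 rose, and among the 61 without it 47, with medians of 0.80 and 0.49. These counts are descriptions of letters in a window. The promoters printed above show the same mixture, since Mrpl52 and Mrpl27 both hold the ETS letters and Mrpl17 and Mrpl9 both hold the NRF1 letters, with differences in PBS of 1.37 and -0.16 and of 0.71 and -0.13. The low signal of Mrpl27 limits its use here, since its mean of 5.06 lay below the lowest array median of 5.17.

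Of the 66 members with a promoter, 23 (34.8%) had a protein-coding gene starting within 1000 bases and transcribed away from them, against 8.48% of protein-coding genes. Of these 23 members 17 rose in PBS, as did 57 of all 75 members. Their partners had a median difference of 0.23, with 8 higher, 2 lower and 13 not past the threshold. Of all genes 9.34% rose and 7.28% fell. Twnk, the partner of Mrpl43, was measured under its older symbol Peo1. Among the 8 higher partners were Mrpl46 and Mrps11, which are members themselves. Mrpl46 and Mrps11, whose intervening bases are printed above, are partners of each other with starts 42 bases apart. Mrpl46, of the large subunit, had 8.01, 8.23 and 7.91 in PBS at 24 h, against 7.51, 7.45 and 7.46 at 3 h (0.57 ± 0.12, adjusted p = 0.00514). Mrps11, of the small subunit, had 8.12, 7.97 and 8.08 at 24 h, against 7.71, 7.66 and 7.59 at 3 h (0.41 ± 0.09, adjusted p = 0.00881). Both rose, with groups apart. The partners that fell, chosen here after their values were seen, were Pnpla7 beside Mrpl41 (-0.59) and Ppp1r10 beside Mrps18b (-0.55), at 935 and 756 bases.

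Markers of other cells moved with time as well. In these bulk samples fewer cells of a type and less RNA per cell cannot be told apart. Of 8 monocyte and macrophage markers 7 rose in imatinib and 7 in PBS, and their mean signal was 9.51 to 9.65 in imatinib 24 h, 9.52 to 10.01 in PBS 24 h, 7.45 to 7.47 in imatinib 3 h and 7.23 to 7.68 in PBS 3 h. Of 7 neutrophil markers 3 rose in imatinib and 4 in PBS, with mean signals of 6.74 to 7.02, 6.98 to 7.63, 5.67 to 6.17 and 5.88 to 6.75 in the same groups. Of 12 cell cycle genes 10 rose in imatinib and 10 in PBS, with mean signals of 7.13 to 7.37, 7.17 to 7.35, 6.08 to 6.11 and 6.00 to 6.12. Of 10 endothelial markers 3 fell in imatinib and 4 in PBS, and of 8 pericyte markers 0 fell in imatinib and 6 in PBS. The pericyte mean signals were 9.18 to 9.41 in imatinib 24 h, 8.88 to 9.21 in PBS 24 h, 9.32 to 9.44 in imatinib 3 h and 9.52 to 10.11 in PBS 3 h. No gene passed between imatinib and PBS at either time or in the interaction, so these counts show no difference between treatments. Of 6 perivascular fibroblast markers 2 rose in imatinib (Dcn by 1.16, adjusted p = 0.00518, and Pdgfra by 0.65, adjusted p = 0.0424) and 1 in PBS (Col3a1 by 0.70, adjusted p = 0.00892). Their mean signals were 6.07 to 6.14 in imatinib 24 h, 5.89 to 6.13 in PBS 24 h, 5.57 to 5.66 in imatinib 3 h and 5.69 to 6.04 in PBS 3 h. Dcn, Pdgfra and Col3a1 were named after their values were seen. In PBS, Dcn had a difference of 0.48 between 24 h and 3 h and Pdgfra of -0.41, neither past the threshold. Between imatinib and PBS at 3 h their differences were -0.51 and -0.83, also not past it. Of 6 microglial markers 1 fell in imatinib and 2 in PBS, and none of the 7 T, NK and B cell or 7 neuronal markers passed in either. Oligodendrocyte markers fell in 0 of 6 cases in imatinib and 2 in PBS, smooth muscle markers in 1 of 6 and 2, and astrocyte markers in 1 of 6 and 2, with 1 astrocyte marker higher in each. The part of these shifts in the rise of the mitochondrial ribosomal protein genes was not tested.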

How the data were processed

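Signals of 33793 probe sets on 11 arrays were deposited on the log2 scale. According to the submitters' processing notes, the authors computed them by RMA in Affymetrix Expression Console, and limma is named too. Per the labels, 10 ng of RNA per sample entered the NuGEN Ovation Pico WTA amplification. The sources used here do not name the array type, a genome build or tool versions. Probe sets with no gene symbol (1591), several symbols (128) or a symbol converted to a date (14) were dropped. Symbols with several probe sets were represented by the brightest on average, which gave 30790 genes. RMA draws the arrays to a common distribution, so differences are relative to all genes, and the number of arrays limits the precision.

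One mean per group was fitted on all 11 arrays in limma 3.58.1 (R 4.3.3) without a block, with empirical Bayes and Benjamini-Hochberg adjustment over all genes for each of 5 contrasts. The threshold was 0.05 and the tests were two-sided. The procedure was tested on simulated data. Alternatives left out each array, added the replicate number as a block, tested every probe set, filtered low signals, normalized again by quantiles, changed the variance model, weighted arrays, or fitted only the groups compared.

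Members and gene lists were chosen with earlier results of these data known. Genes were named by a rule: the 8 largest rises and falls past the threshold per contrast, or the 5 smallest p where fewer than 5 passed, the extremes, the members next to the threshold, a fixed set of regulators and paralogues, and up to 3 genes per direction from each other list. Subunit and descent were assigned from general knowledge, and symbols in lists were matched as written, with older symbols included. Figures were drawn with matplotlib 3.10.9.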

Additional observations from a re-analysis of the deposited data

How the results depend on the processing

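No member fell between 24 h and 3 h under any alternative run, and 0 members passed for imatinib against PBS or the interaction under any of them. In PBS the count of members called was 46 to 58 when each array was left out, with 46 without the 24 h PBS sample numbered 1, and 51 to 61 otherwise. 44 of the 57 calls held without each array. The median difference was 0.491 to 0.561 without each array and 0.473 after a further quantile normalization, which moved the median of all genes by at most 0.029. In imatinib the count was 22 to 44 when each array was left out, 22 without either imatinib sample at 3 h, and 32 to 48 under the other alternatives; 16 of the 42 calls held without each array. The median was 0.428 to 0.461 without each array and 0.392 after quantile normalization. The median of the interaction was -0.104 (without the 24 h PBS sample numbered 2) to -0.0383, of imatinib against PBS at 24 h -0.0545 to -0.0127 and at 3 h 0.00075 to 0.0423 without each array. With the replicate number as a block, 56 members were called in PBS and 32 in imatinib. Same-numbered samples deviated with correlations of -0.037 to 0.058 over 15 pairs, none above 0.1. A pairing by number was thus not seen, but a batch shared in another way was not checked. The call of Mrps2 in PBS was lost under 13 alternatives. Differences near 0 changed sign when arrays were left out: Mrps18c in PBS ranged from -0.00707 (without the 24 h PBS sample 1) to 0.146, Mrpl27 in imatinib from -0.354 to 0.17 (without the 3 h imatinib sample 2; 0.0813 without the 24 h imatinib sample 2) and Mrps36 in imatinib from -0.347 to 0.387 (-0.347 and -0.0837 without the same samples). Mrpl9 in PBS was 0.0145 without the 3 h PBS sample 2, and Mrpl40 in imatinib 0.212 without the 3 h imatinib sample 1. The cause was not tested. Background correction and slide or scan as a block were not run, since only processed signals were used.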
